A study of Mus musculus with 3 samples.

Results

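The 9 genes described here are the Notch receptors Notch1, Notch2, Notch3 and Notch4, the ligands Jag1, Jag2 and Dll4, and the target genes Hes1 and Hey1, taken by name from the 32285 genes of the count matrices of the mouse lacrimal gland (LG), the gland that secretes the aqueous part of the tear film. The data came from 3 libraries of dissociated LG cells of C57BL/6J mice aged 2 months: Female replicate 1, Male replicate 1 and Male replicate 2. They are called F, M1 and M2 below, and sets of 3 values are given in this order. Each library pooled 6 glands of 3 mice, so the spread between libraries is a spread between pools and not between animals. F was processed at a core of its own and on a different day from M1 and M2, so that sex cannot be told apart from core and day, and no test between the sexes was made.

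Notch receptors are membrane proteins that are activated by ligands on a neighbouring cell. Binding lets proteases release the intracellular part of the receptor, which enters the nucleus and, with the DNA-binding protein RBPJ and Mastermind coactivators, switches on targets such as the HES and HEY repressors. In vessels, Dll4, Notch1 and Notch4 are known from endothelial cells and Notch3 from mural cells, the pericytes and smooth muscle cells that wrap them, and in glandular epithelia Notch signals act in the choice between cell fates.

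In the mm10 build, the receptor genes lie at chr2:26457903-26516663 (Notch1), chr3:98013527-98150361 (Notch2), chr17:32120820-32166852 (Notch3) and chr17:34564268-34588503 (Notch4). The ligand genes lie at chr2:137081456-137116644 (Jag1), chr12:112907819-112929776 (Jag2) and chr2:119325784-119335962 (Dll4), and the target genes at chr16:30064384-30067796 (Hes1) and chr3:8663359-8667256 (Hey1). All 9 are annotated as protein-coding, and the UMIs counted here tag the 3′ ends of their transcripts.

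RefSeq promoters (build GRCm38.p6) were matched for 7 of the 9 genes, all but Hes1 and Hey1. Those of Notch3, Notch4 and Dll4 are shown as examples of genes for which every sum of 1 cell class lay above every sum of the other 8. Each is given 5′ to 3′ on the strand of its gene, from 250 to 31 bases before the start site. Capitals mark the ETS core GGAA or its reverse complement TTCC, a motif bound by the ETS factors that are active in endothelial cells among many other cells. Notch3 lies on the minus strand (chr17:32166921-32167140), and Notch4 (chr17:34564045-34564264) and Dll4 (chr2:119325534-119325753) lie on the plus strand.
Notch3: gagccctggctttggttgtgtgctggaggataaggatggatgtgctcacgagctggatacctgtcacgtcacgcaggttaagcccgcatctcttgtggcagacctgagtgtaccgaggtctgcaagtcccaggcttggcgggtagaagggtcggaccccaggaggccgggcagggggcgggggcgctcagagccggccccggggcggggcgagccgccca
Notch4: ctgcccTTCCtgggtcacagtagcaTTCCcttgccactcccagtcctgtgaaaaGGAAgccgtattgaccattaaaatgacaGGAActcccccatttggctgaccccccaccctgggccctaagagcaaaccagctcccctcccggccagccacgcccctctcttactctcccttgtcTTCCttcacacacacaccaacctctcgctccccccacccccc
Dll4: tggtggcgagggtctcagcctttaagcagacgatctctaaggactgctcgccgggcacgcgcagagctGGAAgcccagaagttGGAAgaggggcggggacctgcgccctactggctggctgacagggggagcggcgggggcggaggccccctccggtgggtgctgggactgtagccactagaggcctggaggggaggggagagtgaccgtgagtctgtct
The ETS core had 0 matches in the Notch3 window, 5 in that of Notch4 and 2 in that of Dll4. Of all 27025 promoter windows of this length, 91.0% held at least 1 match, with a median of 2. The RBPJ core TGGGAA or TTCCCA, whose reverse form contains TTCC, had 0 matches in each of the 7 windows and was present in 19.3% of all windows. These matches describe the letters of the windows, and no binding was measured.

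After the limits on UMIs, genes, mitochondrial share and doublets, 7652, 5295 and 5397 cells were kept (F, M1 and M2), with a median of 3252, 1884 and 1788 UMIs per cell. The 9 genes and the other Notch pathway genes were left out of the genes used for clustering, so no cell was placed in a class by them. A class has "-like" in its name because the name rests on marker genes. This gave 147 mural-like, 1784 endothelial-like and 7808 epithelial-like cells, the latter including 928 MEC-like cells (myoepithelial cells, the contractile cells around the acini), 1673 duct-like, 861 Ltf+-like and 4346 acinar-like cells. Among mural-like, endothelial-like and epithelial-like cells, all 9 mural, 7 endothelial and 7 epithelial markers were highest in the class they mark. The clusters were named from these same markers, so this does not test the names. Levels are CPM, here UMIs per 1000000 UMIs without tear-product and mitochondrial genes, because tear-product RNA made up 90.0 to 90.7% of the UMIs of acinar-like cells and, through free RNA, 38.1 to 66.2% of those of mural-like cells. A UMI counts an RNA molecule, so levels do not scale with transcript length. Mural-like cells held 28647 to 95073 such UMIs per library, so 1 UMI stood for 31.6 CPM in M1 and 34.9 in M2, and low levels in these cells rest on few molecules.

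Notch3 was the receptor of the mural-like cells. Its level was 936 CPM in F, 537 in M1 and 838 in M2 (mean 770.2 ± 208, SD, n = 3 libraries). Every mural-like sum was far above every sum of the other 8 classes, of which Ltf+-like cells came next with 19.1, 18.9 and 10.6 CPM, followed by fibroblast-like cells with 4.33, 3.60 and 9.08. In endothelial-like cells only 2 Notch3 UMIs were counted, both in F. By edgeR's quasi-likelihood test on class sums, with the library as a block, Notch3 was higher in mural-like than in endothelial-like cells (log2 fold change 9.60 ± 0.57, SE, adjusted p = 2.22e-08) and than in epithelial-like cells (8.21 ± 0.41, adjusted p = 1.27e-09). No Notch3 UMI was found in the barcodes that held free RNA, which allows up to 55.5 CPM (upper end of the exact Poisson interval). Every mural-like sum lay above this limit, and every Ltf+-like sum lay below it.

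Notch1 and Notch4 were the receptors of the endothelial-like cells. Notch1 reached 240.5, 182 and 91.7 CPM in F, M1 and M2 (mean 171 ± 74.9, n = 3). These sums did not overlap with those of mural-like cells, with 73.6, 0 and 69.8, where 9 UMIs were counted, or with those of epithelial-like cells, with 25.6, 15.1 and 15.7. Notch1 was lower in mural-like than in endothelial-like cells (log2 fold change -1.88 ± 0.51, adjusted p = 0.0132), a call that was lost without F (adjusted p = 0.113), and higher in endothelial-like than in epithelial-like cells (3.07 ± 0.30, adjusted p = 4.69e-07). Between mural-like and epithelial-like cells it did not pass (1.20 ± 0.62, adjusted p = 0.179). Below the endothelial-like level, the ranges of Notch1 overlapped between each class and the next in the order mural-like, fibroblast-like, Ltf+-like, duct-like, lymphoid-like, myeloid-like and acinar-like cells, and MEC-like cells lay lowest at 2.53 ± 2.54.

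Notch4, a receptor known mainly from endothelium, stood at 65.2, 43.0 and 38.6 CPM in endothelial-like cells (mean 49.0 ± 14.3), above every sum of the other classes. It was higher there than in epithelial-like cells (log2 fold change 6.30 ± 0.63, adjusted p = 6.46e-07). In mural-like cells 1 UMI was counted, in M2, and the difference to endothelial-like cells did not pass (-3.17 ± 1.24, adjusted p = 0.0777). It passed without M2 (adjusted p = 0.0105), without integration (adjusted p = 0.0218) and with no filter on low counts (adjusted p = 0.0113). With 0 Notch4 UMIs, the free-RNA barcodes allow up to 55.5 CPM (upper end of the exact Poisson interval). The endothelial-like level of F lay above this limit and those of M1 and M2 below it.

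Notch2 ran the other way, low in endothelial-like cells and present in most others. Endothelial-like cells held 3.62, 3.31 and 4.83 CPM against 27.4, 24.2 and 22.7 in epithelial-like and 42.1, 31.6 and 34.9 in mural-like cells. The endothelial-like sums lay below all sums of both other lineages. Notch2 did not pass the filter on low counts in this fit. It was tested in some alternatives, and without the filter it was lower in endothelial-like than in epithelial-like cells (log2 fold change -2.78, adjusted p = 9.63e-06) and higher in mural-like than in endothelial-like cells (2.87, adjusted p = 0.0292). The mural-like level rests on 6 UMIs (4, 1 and 1 in F, M1 and M2). The call between mural-like and endothelial-like cells held in 3 of the 4 alternatives in which Notch2 was tested. From Ltf+-like cells at the top (57.0 ± 11.8) over fibroblast-like (43.0 ± 13.6), mural-like and myeloid-like (33.2 ± 10.4) to MEC-like cells, the ranges of each class and the next overlapped. Free-RNA barcodes held 2 Notch2 UMIs (30.1 CPM, exact 95% Poisson interval 3.64 to 109), so levels of this size are not above what that background allows.

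**Figure D1:**
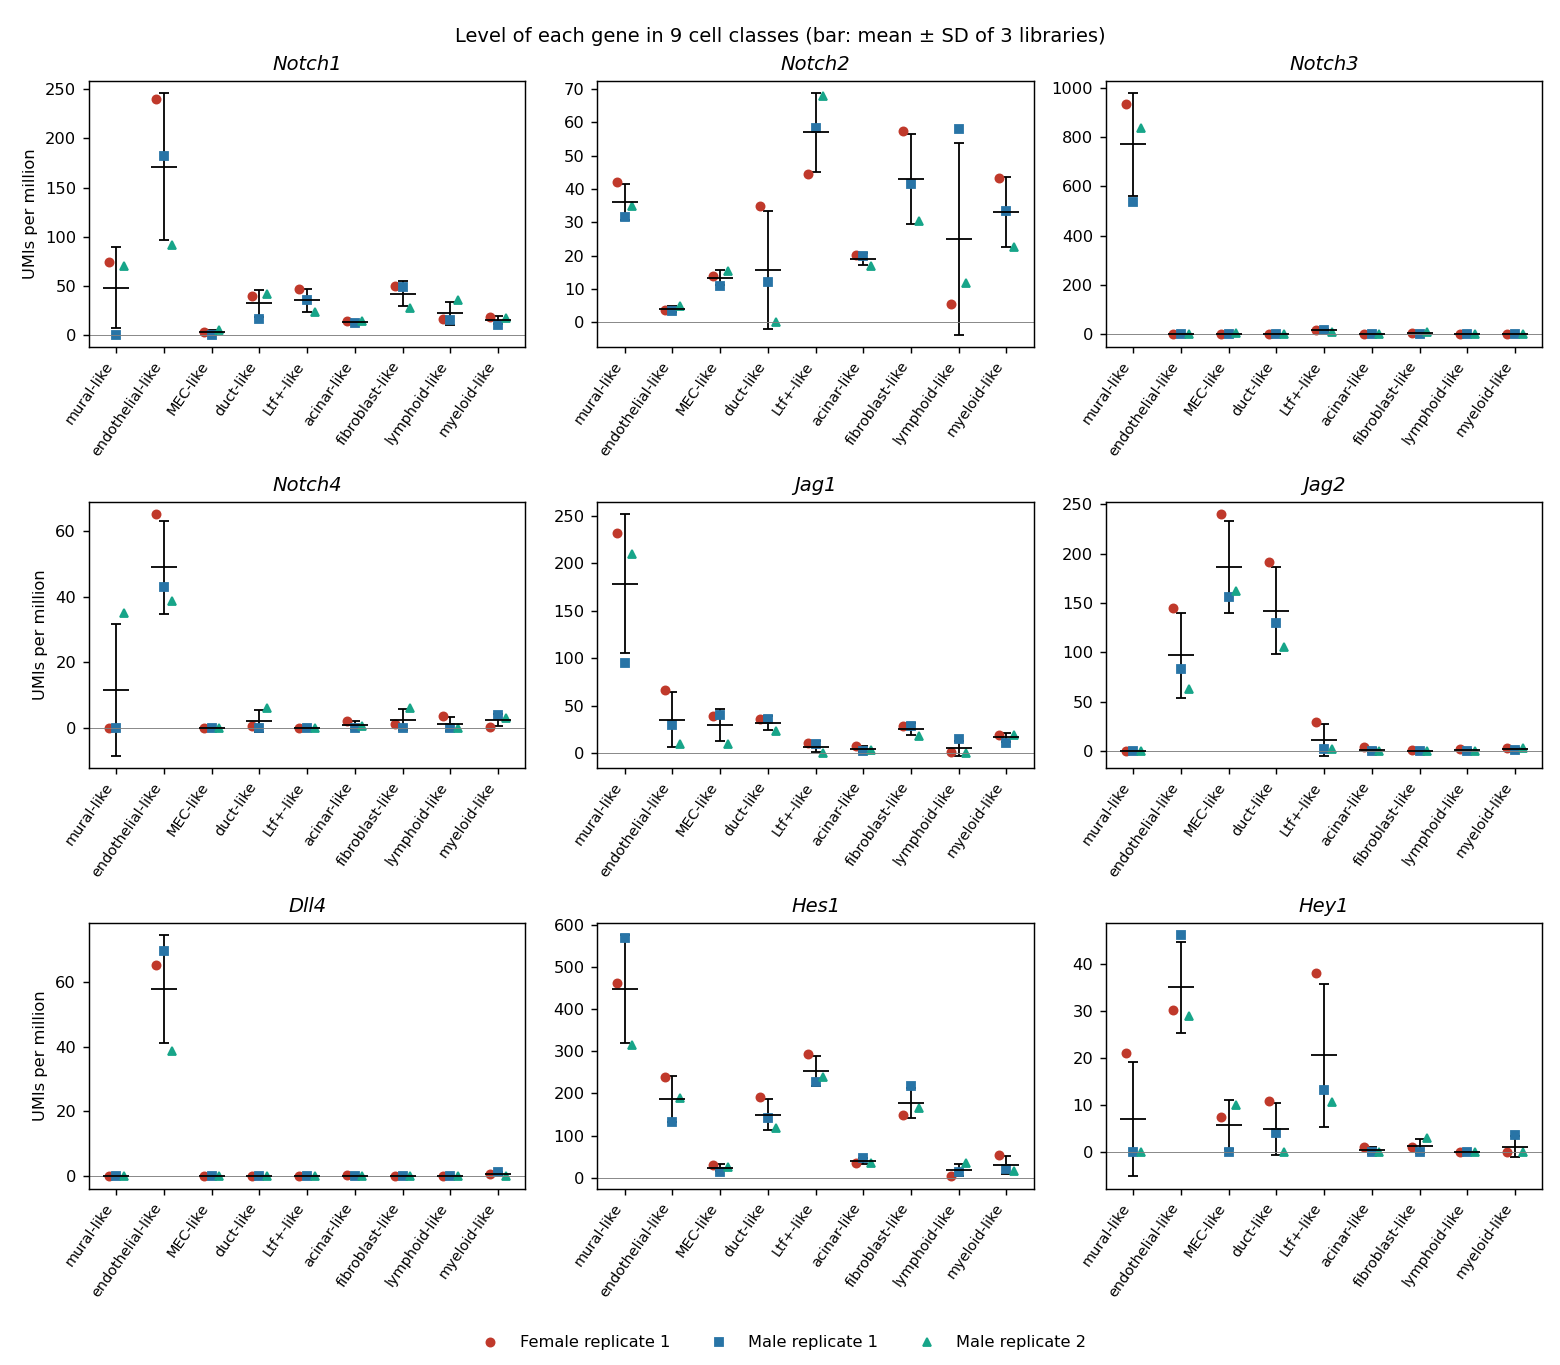
Level of each of the 9 genes (y axis, CPM without tear-product and mitochondrial genes, linear, a different range in each panel) in 9 cell classes (x axis). Points are the 3 libraries and the bars their mean ± SD; Notch3 stands at 537 to 936 in mural-like cells, Dll4 at 38.6 to 69.4 in endothelial-like cells, and Jag2 at 106 to 240.2 in duct-like and MEC-like cells.

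Among the ligands, taken over whole classes, Jag1 was highest in mural-like cells and Dll4 in endothelial-like cells, while Jag2 was shared by endothelial-like, MEC-like and duct-like cells. Arteriolar-like cells, a small part of the endothelial-like class described below, had more Jag1 than mural-like cells in F and M1 (586 and 312 CPM). In M2 they had 0. Jag1 had 231, 94.7 and 209 CPM in mural-like cells of F, M1 and M2 (mean 179 ± 73.4; 31 UMIs). In endothelial-like cells it had 67.1, 29.8 and 9.66, and in epithelial-like cells 23.7, 8.53 and 4.49. The mural-like sums lay above all of these, and the ranges of the other 2 lineages overlapped with each other. Jag1 was higher in mural-like than in endothelial-like cells (log2 fold change 2.11 ± 0.49, adjusted p = 0.00489) and than in epithelial-like cells (3.62 ± 0.49, adjusted p = 3.82e-05). It was also higher in endothelial-like than in epithelial-like cells, in 3 of 3 libraries (1.51 ± 0.40, adjusted p = 0.00451). When the expected free RNA was subtracted, the first and the last of these calls were lost (adjusted p = 0.0793 and 0.0938); free-RNA barcodes held 3 Jag1 UMIs (45.1 CPM, interval 9.31 to 132). The first was also lost without the library block (adjusted p = 0.0711).

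Jag2 had 145, 82.7 and 62.8 CPM in endothelial-like cells and 115, 21.2 and 14.3 in epithelial-like cells, which overlap between libraries although the endothelial-like level was higher within each of the 3. This difference passed (log2 fold change 1.15 ± 0.36, adjusted p = 0.0167) but it rests on the acinar-like share of the epithelium: without acinar-like cells the log2 fold change was -0.03 (adjusted p = 0.942). It also missed the threshold with free RNA subtracted (adjusted p = 0.0667), without M1 (0.0579) and without the library block (0.271).
In mural-like cells 0 Jag2 UMIs were counted, which allows up to 19.3 CPM over the 3 libraries (3 counts). Against that limit, Jag2 was at least 6.65-fold higher in endothelial-like cells, pooled over libraries, and at least 3.29-fold higher in epithelial-like cells. The tests called both differences (adjusted p = 0.00317 and 0.0157), and both calls were lost without F (adjusted p = 0.0532 and 0.283) and without the library block (0.109 and 0.188).

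Dll4, the delta-type ligand of sprouting and capillary endothelium, had 65.2, 69.4 and 38.6 CPM in endothelial-like cells (mean 57.8 ± 16.7; 137 UMIs). Of the 7808 epithelial-like cells, 1 acinar-like cell of F held a Dll4 UMI, and mural-like, fibroblast-like and lymphoid-like cells held 0. Endothelial-like cells were higher than epithelial-like cells (log2 fold change 8.63 ± 0.68, adjusted p = 1.90e-07) and, against the limit of 3 counts, at least 3.28-fold higher than mural-like cells (adjusted p = 0.0113). Free-RNA barcodes held 0 Dll4 UMIs, which allows up to 55.5 CPM (upper end of the exact Poisson interval). The endothelial-like levels of F and M1 lay above this limit and that of M2 (38.6) below it.

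The targets differed in where they were found. Hes1, a basic helix-loop-helix repressor that many other signals also induce, had 463, 568 and 314 CPM in mural-like cells (mean 448 ± 128), 239.8, 132 and 188 in endothelial-like cells and 120, 77.6 and 65.1 in epithelial-like cells. The 3 lineages did not overlap in their sums. Hes1 was higher in mural-like than in endothelial-like cells (log2 fold change 1.09 ± 0.29, adjusted p = 0.0109) and than in epithelial-like cells (2.09 ± 0.29, adjusted p = 3.95e-05), and higher in endothelial-like than in epithelial-like cells (1.00 ± 0.24, adjusted p = 0.00218). The first call was lost in 5 of the alternatives, among them without M1 (0.48, adjusted p = 0.514) and with doublets removed at 2 times the expected number (0.77, adjusted p = 0.140), and the last without acinar-like cells (0.32, adjusted p = 0.229). Free-RNA barcodes held 6 Hes1 UMIs (90.3 CPM, interval 33.1 to 196), an interval that all mural-like and Ltf+-like sums exceeded and that covered those of duct-like and acinar-like cells in whole and those of endothelial-like and fibroblast-like cells in part. Of 20 genes that rise during tissue digestion, 3 were higher and 3 lower in mural-like than in endothelial-like cells, and their summed level was 19690 to 30160 and 22937 to 24364 CPM; their part in the Hes1 levels was not tested.

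Hey1, a repressor typical of arterial endothelium, had 30.2, 46.3 and 29.0 CPM in endothelial-like cells (mean 35.2 ± 9.66). The next class, Ltf+-like cells, overlapped with them at 38.2, 13.2 and 10.6. Mural-like cells held 2 Hey1 UMIs, both in F. With 0 Hey1 UMIs, the free-RNA barcodes allow up to 55.5 CPM, and all endothelial-like levels lay below this limit. Hey1 did not pass the filter on low counts here; without the filter it was higher in endothelial-like than in epithelial-like cells (log2 fold change 2.90, adjusted p = 2.54e-09) and did not pass between mural-like and endothelial-like cells (-2.05, adjusted p = 0.220).

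In this fit 7 of the 9 genes passed the filter, all but Notch2 and Hey1; genes such as Dll4 passed through the class in which they are high, so these counts describe the 7 and support nothing further. Against endothelial-like cells, 3 of them were higher in mural-like cells (10.3% of the 5101 genes tested) and 3 lower (14.8%). Against epithelial-like cells, mural-like cells had 3 higher (14% of all genes) and 1 lower (16.3%), and endothelial-like cells had 6 higher (28%) and 0 lower (26.6%; Notch3 was at -1.40, adjusted p = 0.229, and also 0 were lower at an unadjusted p under 0.05 or by DESeq2). The median log2 fold change over all genes was -0.15, -0.18 and 0.02 in these comparisons. With all UMIs as library size it moved by -0.02, 1.94 and 1.96, and the share of calls that were higher went from 41.1, 46.2 and 51.2% to 41.0, 96.8 and 95.6%, since tear-product RNA then sets the totals of epithelial-like cells. Of the members' differences in these 3 comparisons, only that of Notch3 between endothelial-like and epithelial-like cells changed its sign with this scaling (0.52), and relative to the shift it did not.

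**Figure D2:**
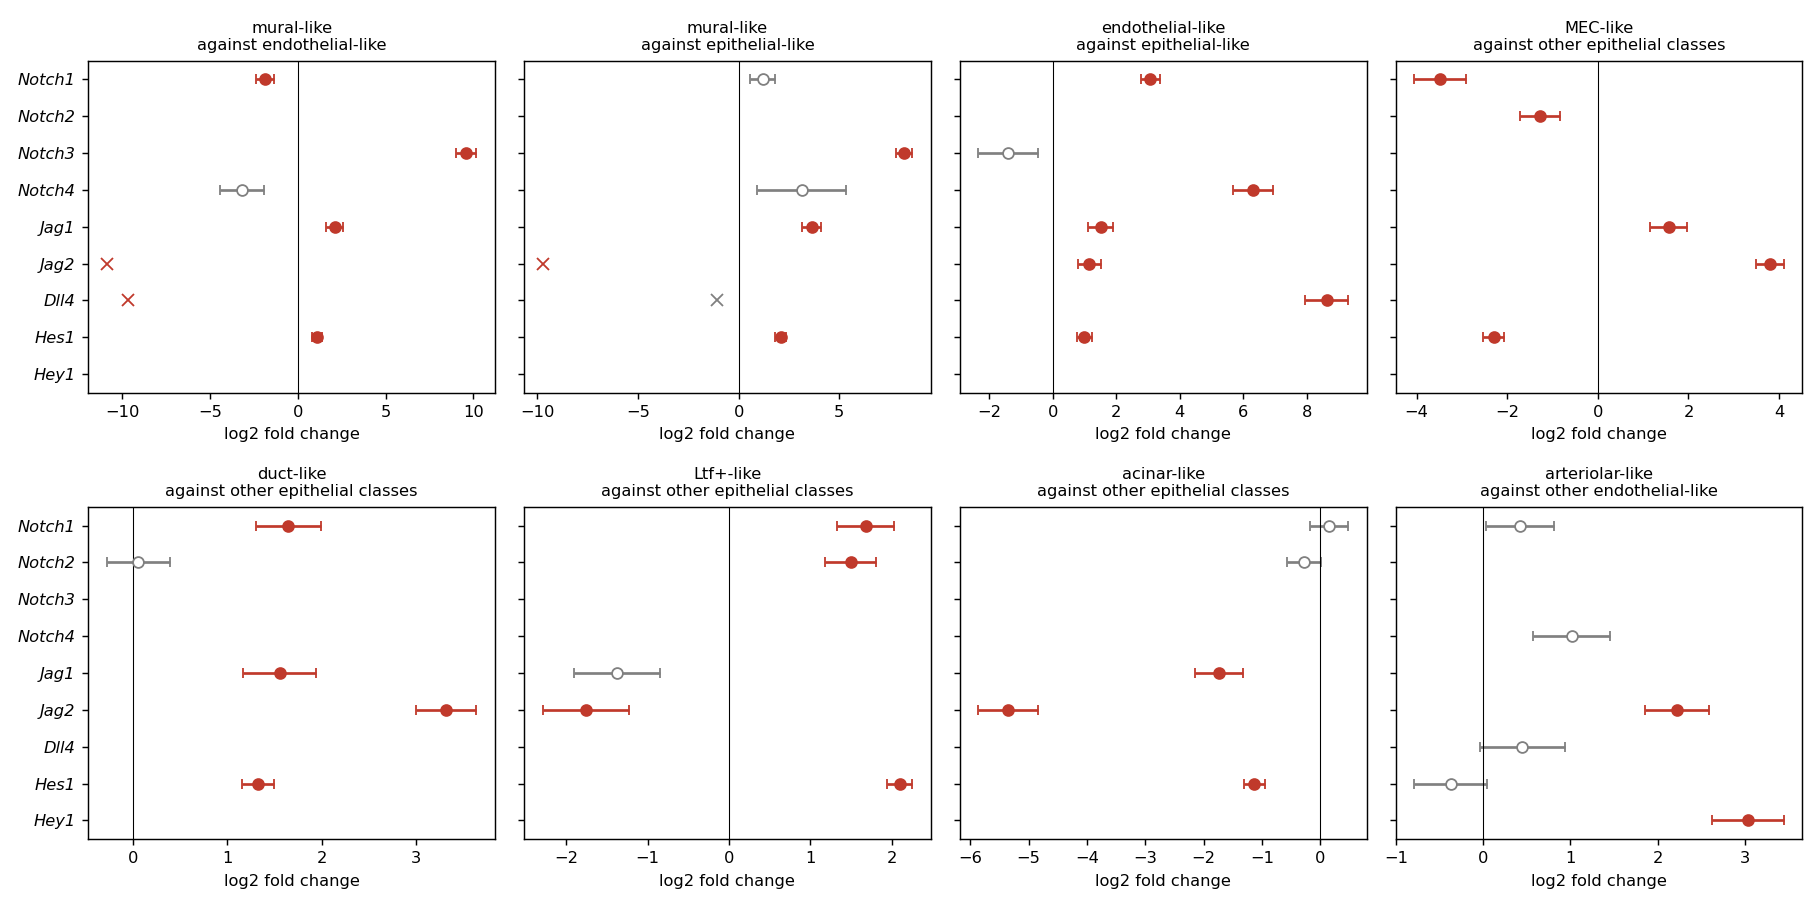
Log2 fold changes (x axis, a different range in each panel) of the genes that passed the filter in each of the 8 comparisons, with the SE from the quasi-likelihood F statistic as bars. Filled points passed an adjusted p of 0.05, open points did not, and crosses mark genes at 0 UMIs in the first class, whose fitted value is no bound; Notch3 stands at 9.60 and 8.21 in the mural-like comparisons and Jag2 at -5.35 in acinar-like cells.

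As shares of all receptor UMIs of a class, Notch3 made up 89.7 ± 4.41% (n = 3 libraries) in mural-like cells. In endothelial-like cells Notch1 made up 75.0 ± 6.29% and Notch4 22.8 ± 5.11%. Notch2 had the largest mean share in MEC-like, Ltf+-like and acinar-like cells, with 81.5 ± 20.2%, 52.9 ± 13.2% and 56.8 ± 3.45%, and Notch1 in duct-like cells with 65.7 ± 19.0%. The MEC-like share rests on 17 Notch2 UMIs, beside 3 of Notch1 and 1 of Notch3. In duct-like cells F held 108 Notch1 and 96 Notch2 UMIs, a Notch1 share of 52.4%. The higher mean comes from M1 with 4 and 3 UMIs and M2 with 7 and 0. Of the UMIs of the 3 ligands, all 31 in mural-like cells were Jag1, and Jag2 took 86.6 ± 7.26% in MEC-like, 81.4 ± 3.15% in duct-like and 51.4 ± 5.58% in endothelial-like cells.

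**Figure D3:**
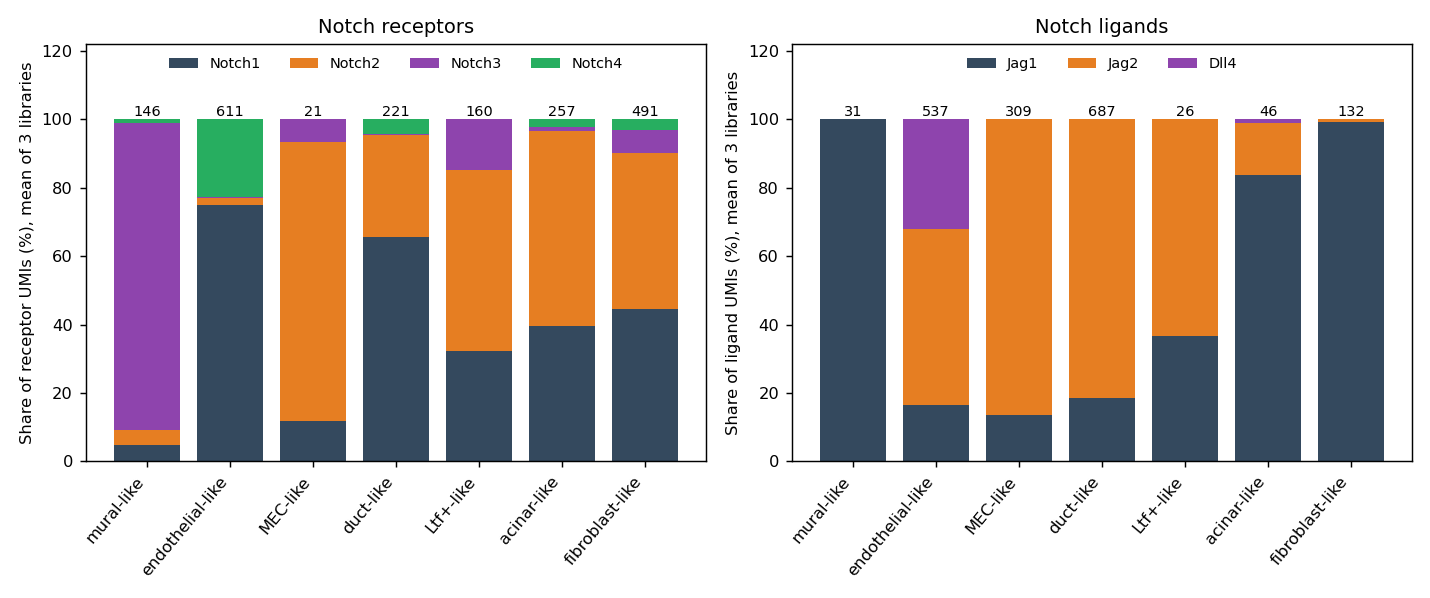
Share of receptor UMIs (left) and ligand UMIs (right) taken by each gene in 7 cell classes (x axis), in percent as the mean of 3 libraries, with the number of UMIs above each bar. Notch3 fills 89.7% of the mural-like bar, Notch1 and Notch4 fill the endothelial-like bar, and Dll4 appears at 32.2% of the endothelial-like ligand bar and at 1.15% in acinar-like cells from 1 UMI.

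Among the epithelial classes, MEC-like cells had the highest mean Jag2 and the lowest Hes1, Ltf+-like cells had the highest Hes1 and little Jag2, and duct-like cells held both. Each of the 4 classes was compared with the mean log level of the other 3 in one fit of 12 sums, in which 5 of the 9 genes passed the filter; Notch3, Notch4, Dll4 and Hey1 did not. MEC-like cells had the most Jag2, with 240.2, 156 and 162 CPM in F, M1 and M2. They had Jag1 at 39.2, 39.9 and 10.1, and little Notch1 (2.53, 0 and 5.07; 3 UMIs in 928 cells) and Hes1 (30.3, 14.5 and 25.4). Their Jag1 levels lay inside the free-RNA interval of this gene (9.31 to 132 CPM). The Jag2 level of MEC-like cells did not overlap with those of Ltf+-like and acinar-like cells but did with that of duct-like cells. Jag2 (log2 fold change 3.80 ± 0.31, adjusted p = 2.56e-08) and Jag1 (1.56 ± 0.41, adjusted p = 0.00494) were higher, and Notch1 (-3.48 ± 0.57, adjusted p = 9.75e-05), Hes1 (-2.30 ± 0.24, adjusted p = 4.72e-07) and Notch2 (-1.28 ± 0.44, adjusted p = 0.0245) were lower, beside 23.3% and 20.6% of the 8760 genes tested. The call on Notch2 was lost in 7 of 15 alternatives, among them without F (-0.67, adjusted p = 0.444) and without M1 (adjusted p = 0.0850). Of the digestion genes 16 of 20 were higher in MEC-like cells and 0 lower, at a summed level of 34413 to 37548 CPM; their part in these levels was not tested.

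Duct-like cells shared Jag2 and Jag1 with MEC-like cells but also had Notch1 and Hes1. The levels of Jag1, Notch1 and Hes1 in duct-like cells all lay inside their free-RNA intervals. Jag2 stood at 191, 129 and 106 CPM, Jag1 at 35.6, 36.4 and 23.5, and Notch1 at 39.2, 16.2 and 41.1. Hes1 stood at 191, 141 and 117, between Ltf+-like cells above and acinar-like and MEC-like cells below, with no overlap to either side. All 4 were higher than the mean of the other classes (Jag2 3.32 ± 0.32, adjusted p = 4.62e-07; Notch1 1.64 ± 0.34, adjusted p = 0.00119; Jag1 1.55 ± 0.39, adjusted p = 0.00443; Hes1 1.33 ± 0.17, adjusted p = 1.04e-05; log2 fold changes), beside 19.1% of all genes tested, and 0 of the 5 were lower (15.4%; also 0 by DESeq2). The Notch1 call was lost without F (adjusted p = 0.0706), and all 20 digestion genes were also higher, at a summed level of 43838 to 48526 CPM; their part was not tested. Notch2 did not differ beyond its error (0.06 ± 0.34, adjusted p = 0.930): of its 99 UMIs, 96 were in F.

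Ltf+-like cells are a secretory class named for lactotransferrin. The paper holds its Ltf+ cluster to be mainly luminal cells, likely of smaller and intercalated ducts, so this class may be ductal too. Ltf+-like cells had the highest Hes1 of the epithelial classes and receptors rather than ligands. Cells that resembled Car6hi acinar cells, a subclass of the acinar-like class described below, overlapped with them in Hes1 (115, 298 and 244 CPM). Hes1 stood at 293, 226 and 240.2 CPM, Notch2 at 44.6, 58.5 and 68.0 and Notch1 at 46.7, 35.8 and 23.4. The levels of both receptors lay inside their free-RNA intervals. The Hes1 and Notch2 sums lay above every sum of the other 3 epithelial classes, and those of Notch1 overlapped with duct-like cells. Hes1 (log2 fold change 2.10 ± 0.15, adjusted p = 1.86e-08), Notch1 (1.68 ± 0.35, adjusted p = 0.00181) and Notch2 (1.5 ± 0.32, adjusted p = 0.00211) were higher, beside 12.4% of all genes, and Jag2 was lower (-1.76 ± 0.53, adjusted p = 0.0255), beside 8.2%. The Jag2 call was lost in 6 of the alternatives, among them without M1 (adjusted p = 0.124) and without M2 (0.0759). Jag1 stood at 10.6, 9.43 and 0 and did not pass (-1.38 ± 0.53, adjusted p = 0.0764). Of the digestion genes 16 of 20 were lower in Ltf+-like cells and 0 higher, at a summed level of 7646 to 13106 CPM; their part was not tested.

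Notch3 and Hey1, which were below the filter, were also found in Ltf+-like cells among the epithelium. Notch3 had 24 of its 29 epithelial UMIs there, in all 3 libraries (9, 10 and 5 UMIs), and without the filter was higher than in the other classes (log2 fold change 4.68, adjusted p = 1.11e-07). Of the 9 mural markers, 5 were at 0 in Ltf+-like cells (Des, Mustn1, Higd1b, Kcnj8 and Cspg4), and the summed level of all 9 was 12.7 to 37.7 CPM against 17274 to 23677 in mural-like cells. Hey1 had 18, 7 and 5 UMIs in Ltf+-like cells and was higher without the filter (3.00, adjusted p = 4.37e-07). Unlike Notch3, it was not mostly found there. Of its 72 epithelial UMIs, Ltf+-like cells held 30, duct-like cells 31, MEC-like cells 8 and acinar-like cells 3. Its ranges in Ltf+-like and duct-like cells overlapped (10.6 CPM in M2 against 10.9 in F). Free-RNA barcodes held 0 UMIs of Notch3 and of Hey1, which allows up to 55.5 CPM for each. The levels of both genes in Ltf+-like cells lay below this limit. Within the class, the cluster of 264 cells had more Hes1 (383, 282 and 283 CPM) than that of 597 cells (138, 176 and 208), with no overlap; this difference was not tested.

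Acinar-like cells, the tear-producing cells, had the lowest mean Jag2 and Jag1 of the epithelium. Of their subclasses, 253 cells that resembled Car6hi acinar cells had Hes1 at 115, 298 and 244 CPM, 447 that resembled Tfrchi acinar cells had 162, 137 and 145, and the 3646 main acinar-like cells had 24.2, 39.4 and 28.0, with no test. All 447-cell subclass values, and the F value of the 253 cells, lay inside the free-RNA interval of Hes1 (33.1 to 196 CPM). Free RNA was estimated at 43.2, 55.7 and 70.2% of the UMIs of the 447 cells (F, M1 and M2). In the main acinar-like cells it was 2.45, 4.14 and 5.38%. The digestion genes summed to 3529 to 17956, 21381 to 26729 and 3291 to 8075 CPM in these subclasses, and their part was not tested. Over the whole class Jag2 stood at 3.69, 0.387 and 0 CPM, Jag1 at 7.80, 2.32 and 3.67 and Hes1 at 34.9, 47.6 and 34.5. Their Jag2 and Jag1 sums overlapped with those of Ltf+-like cells, which held 0 Jag1 UMIs in M2, and lay below every sum of MEC-like and duct-like cells. Jag2 (log2 fold change -5.35 ± 0.52, adjusted p = 9.94e-08), Jag1 (-1.74 ± 0.41, adjusted p = 0.00151) and Hes1 (-1.13 ± 0.17, adjusted p = 2.24e-05) were lower, beside 30.1% of all genes, and 0 of the 5 were higher (30.4%; also 0 by DESeq2). Notch1 (0.15 ± 0.32, adjusted p = 0.708) and Notch2 (-0.28 ± 0.30, adjusted p = 0.434) did not pass. The Jag1 call was lost without M1 (adjusted p = 0.0632), all 20 digestion genes were lower as well (their part was not tested), and with all UMIs as library size, which moved the median of all genes by -2.58, all 5 were called lower. In this scaling 1.37% of the calls were higher in place of 50.2%, and it was 95.9, 97.9 and 77.6% in place of 53.1, 55.4 and 60.3% for the MEC-like, duct-like and Ltf+-like classes, with the medians moved by 1.24, 1.10 and 0.25. When ribosomal protein genes were also left out of the totals, the share in Ltf+-like cells was 71.7%.

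Within the endothelium, some of the genes differed in level between vessel types. Arteriolar-like (121 cells), capillary-like (1102) and venous-like (416) cells were named from other markers. Notch4 stood at 76.5, 64.2 and 41.4 CPM in capillary-like cells and at 5.51, 0 and 0 in venous-like cells, and Dll4 at 83.7, 88.9 and 57.9 in capillary-like and 0, 0 and 15.2 in venous-like cells. Neither gene overlapped between these vessel types, and this difference was not tested. In venous-like cells 3 counts stood for 35.3 CPM in M1 and 45.6 in M2. The capillary-like Notch4 value of M2, from 5 UMIs, lay below that limit. For Notch4, the 0 of venous-like cells in M2 therefore does not separate these vessel types. Notch1 was found in all 3, with 177 ± 77.7 in capillary-like and 141 ± 68.2 in venous-like cells, whose ranges overlapped. Hes1 stood at 281, 168 and 265 in capillary-like cells, above its 129, 47.1 and 76.1 in venous-like cells.

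Arteriolar-like cells had the highest mean Hey1 and Jag2 of the endothelium. Hey1 stood at 187, 416 and 120.3 CPM there (28 UMIs) and at 17.6, 34.1 and 25.1 in all other endothelial-like cells. Jag2 stood at 610.0, 624 and 120.3 (82 UMIs) against 108, 64.9 and 60.4. For both genes every arteriolar-like sum lay above every sum of these other cells. Of the single vessel types, capillary-like cells of F had Jag2 at 136 CPM, above the arteriolar-like value of M2, which came from 1 UMI. Hey1 (log2 fold change 3.04 ± 0.41, adjusted p = 2.85e-11) and Jag2 (2.23 ± 0.37, adjusted p = 8.05e-08) were higher, beside 3.4% of the 3350 genes tested. The fit had 2 residual degrees of freedom and took 1 common spread for all genes, since it estimated no spread between them, so these p-values lean on the other genes. Jag2 missed the threshold without F (2.09, adjusted p = 0.0682) and with no filter (1.89, adjusted p = 0.112), and Hey1 passed in all 11 alternatives in which it was tested.

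Of the other genes in arteriolar-like cells, 0 of the 6 that passed the filter were lower (6.84% of all genes; also 0 by DESeq2), and Notch4 (1.02 ± 0.44, adjusted p = 0.147), Dll4 (0.45 ± 0.49, adjusted p = 0.732), Notch1 (0.42 ± 0.39, adjusted p = 0.659) and Hes1 (-0.38 ± 0.42, adjusted p = 0.746) did not pass. Jag1 stood at 586, 312 and 0 CPM, from 72, 3 and 0 UMIs, against 25.5, 20.5 and 10.1 in other endothelial-like cells. It did not pass the filter and was called without it (3.71, adjusted p = 2.58e-05), and the value rests on F, since the male libraries together held 42 arteriolar-like cells. Of the digestion genes 12 of 20 were lower in arteriolar-like cells and 0 higher; their part was not tested. Mural markers in arteriolar-like cells summed to 56.9 to 241 CPM, with 6 of 9 at 0. With all UMIs as library size the median of all genes moved by 0.24, and 47.5% of the calls were higher in place of 33.2%; without tear-product, mitochondrial and ribosomal genes in the totals it was 43.3%.

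**Figure D4:**
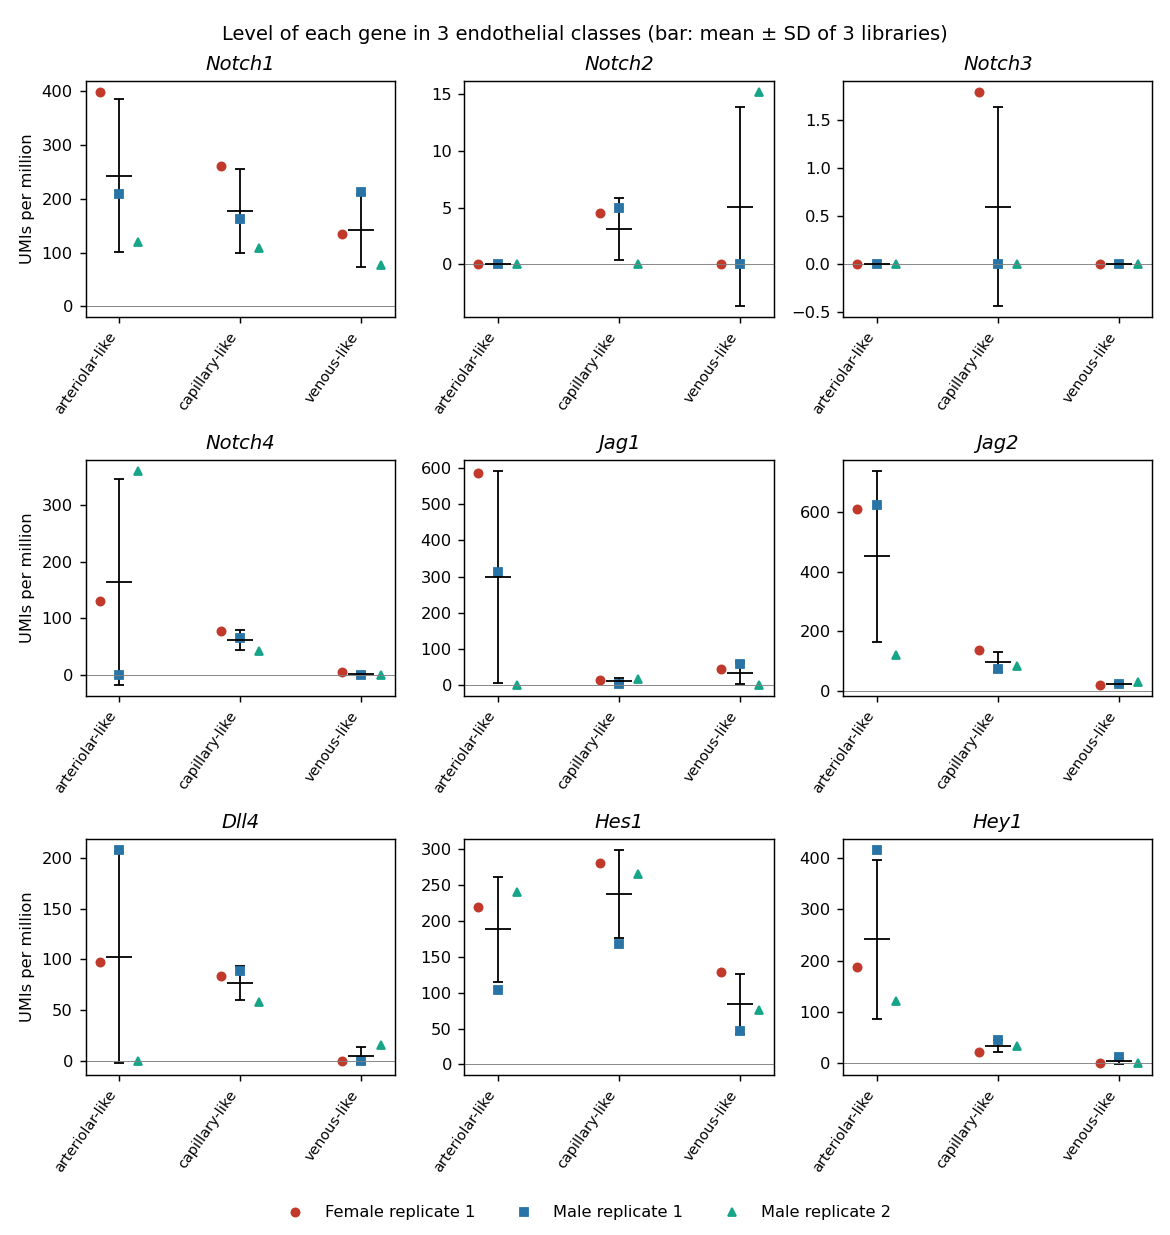
Level of each of the 9 genes (y axis, CPM without tear-product and mitochondrial genes, linear, a different range in each panel) in 3 endothelial classes (x axis), with points for the 3 libraries and bars for their mean ± SD. Hey1 stands at 120.3 to 416 in arteriolar-like cells, and Dll4 stands at 57.9 to 88.9 in capillary-like cells against 0 to 15.2 in venous-like cells.

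After each cell was thinned to 1000 UMIs, the class with the highest share of cells with a UMI was the class with the highest level for 7 of the 9 genes, all but Notch2 and Jag2; in unthinned cells Jag2 was the exception. Notch3 was then found in 27.4% of 135 mural-like cells (exact 95% interval 20.1 to 35.7%) and in 0 of 1535 endothelial-like cells, which allows up to 0.240%; unthinned shares were 45.6% and 0.112%, at median depths of 1700 and 1727 UMIs. Shallower cells were left out, 12 mural-like and 249 endothelial-like ones. Dll4 was found in 3.00% of endothelial-like cells (2.20 to 3.98%) and in 0 of 7616 epithelial-like cells (unthinned 6.61% and 0.0128%, median depths 1727 and 3973.5). Jag2 was found in 9.22% of duct-like (7.86 to 10.7%), 9.01% of MEC-like (7.21 to 11.1%) and 24.2% of 95 arteriolar-like cells (16 to 34.1%), and in 0.0938% of acinar-like cells. These intervals cover counting error only.

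In single cells, 17 of the 24 mural-like cells with a Jag1 UMI also had a Notch3 UMI, beside 67 of all 147. Of the 43 mural-like cells with a Hes1 UMI, 24 had one of Notch3. In endothelial-like cells Notch1 and Notch4 were found together in 49 cells, Notch1 alone in 314 and Notch4 alone in 60. Deeper cells hold more of every gene, and no test was made of these pairs.

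The other 51 genes of the pathway were counted in the same fits. In the lineage fit 22 of them passed the filter. Against endothelial-like cells, mural-like cells had 2 higher (Nrarp and Heyl) and 2 lower (Adam10 and Mfng), beside 10.3% and 14.8% of all genes tested. Against epithelial-like cells they had 4 higher (Nrarp, Heyl, Dtx3 and Adam17) and 2 lower (Itch and Furin), beside 14% and 16.3%. Endothelial-like cells had 7 higher than epithelial-like cells (Nrarp, Adam10, Dtx3, Maml1, Adam17, Numb and Mfng) and 3 lower (Tle1, Psenen and Furin), beside 28% and 26.6%. Most of these counts lie near the shares of all genes, so the single genes are described and nothing is read from the counts.

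Heyl, a HEY-type repressor, had a mean level of 82.9 CPM in mural-like cells, from 15 UMIs, 10.1 in fibroblast-like and 0.403 in endothelial-like cells (log2 fold change 6.75 ± 1.01, adjusted p = 1.55e-04 against endothelial-like and 9.14 ± 0.99, adjusted p = 4.20e-06 against epithelial-like cells). Nrarp, a feedback inhibitor that Notch induces, had 379, 189 and 0 CPM in mural-like and 45.3, 43.0 and 14.5 in endothelial-like cells, which overlap because M2 held 0 mural-like UMIs of it, and a mean of at most 2.56 in the epithelial classes (2.45 ± 0.71, adjusted p = 0.0187 between mural-like and endothelial-like, 4.62 ± 0.76, adjusted p = 1.06e-04 between endothelial-like and epithelial-like cells). The Nrarp difference between mural-like and endothelial-like cells was called in 11 of 15 alternatives, and both Heyl differences were called in all in which the gene was tested.

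Among enzymes that act on the receptors, Mfng, a glycosyltransferase that tunes ligand choice, was highest in endothelial-like cells (64.8 CPM, against 27.5 in lymphoid-like, 16.2 in myeloid-like and 3.51 in mural-like cells; log2 fold change 7.37 ± 0.55, adjusted p = 2.59e-08 against epithelial-like cells). Adam10, the protease of the ligand-induced cut, had 185 in endothelial-like cells and 3 UMIs in all mural-like cells (-3.49 ± 0.68, adjusted p = 0.00126, mural-like minus endothelial-like), whereas Adam17 had 57.7 and 71.3 and did not pass (0.34 ± 0.48, adjusted p = 0.704). Furin, which cuts the receptor precursors among many other proteins, was lower in mural-like (-3.04 ± 0.42, adjusted p = 4.75e-05) and endothelial-like (-2.12 ± 0.24, adjusted p = 2.10e-06) than in epithelial-like cells and highest in acinar-like cells at 366. Psenen, a subunit of gamma-secretase, was lower in endothelial-like than in epithelial-like cells (-0.83 ± 0.21, adjusted p = 0.00351).

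Of the ubiquitin ligases, adaptors and coregulators, Dtx3 (1.30 ± 0.48, adjusted p = 0.0324), Numb, an adaptor that antagonizes Notch (1.58 ± 0.35, adjusted p = 0.00125), and the coactivator Maml1 (1.25 ± 0.46, adjusted p = 0.0308) were higher in endothelial-like than in epithelial-like cells. The corepressor Tle1 was lower (-0.81 ± 0.31, adjusted p = 0.0363), and Itch was lower in mural-like than in epithelial-like cells (-1.93 ± 0.70, adjusted p = 0.0479). The call on Dtx3 held in 10 of 15 alternatives, over which its log2 fold change ran from 0.15 to 3.23. The calls on Itch and Tle1 held in 8 of 14 and 8 of 15 alternatives, and over these the log2 fold changes of Tle1 and Psenen between endothelial-like and epithelial-like cells ran from -1.12 to 1.15 and from -1.47 to 1.14. In the epithelial fit 31 of the 51 passed the filter. Of these, 6 were higher and 8 lower in MEC-like cells (23.3% and 20.6% of all genes), 9 and 4 in duct-like cells (19.1% and 15.4%), 4 and 4 in Ltf+-like cells (12.4% and 8.2%) and 6 and 11 in acinar-like cells (30.4% and 30.1%), and here too nothing is read from the counts. The ligand Dll1 (4.49 ± 0.34 in MEC-like and 3.53 ± 0.37 in duct-like cells) and the delta-like gene Dlk2 (4.33 ± 0.30 and 3.52 ± 0.32), named after their values were seen, were called higher in these classes and lower in Ltf+-like and acinar-like cells. Of 12 that passed in the endothelial fit, 0 were called in arteriolar-like cells by edgeR or in any alternative, DESeq2 included, and 1, Ep300, was under 0.05 before adjustment.

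**Figure D5:**
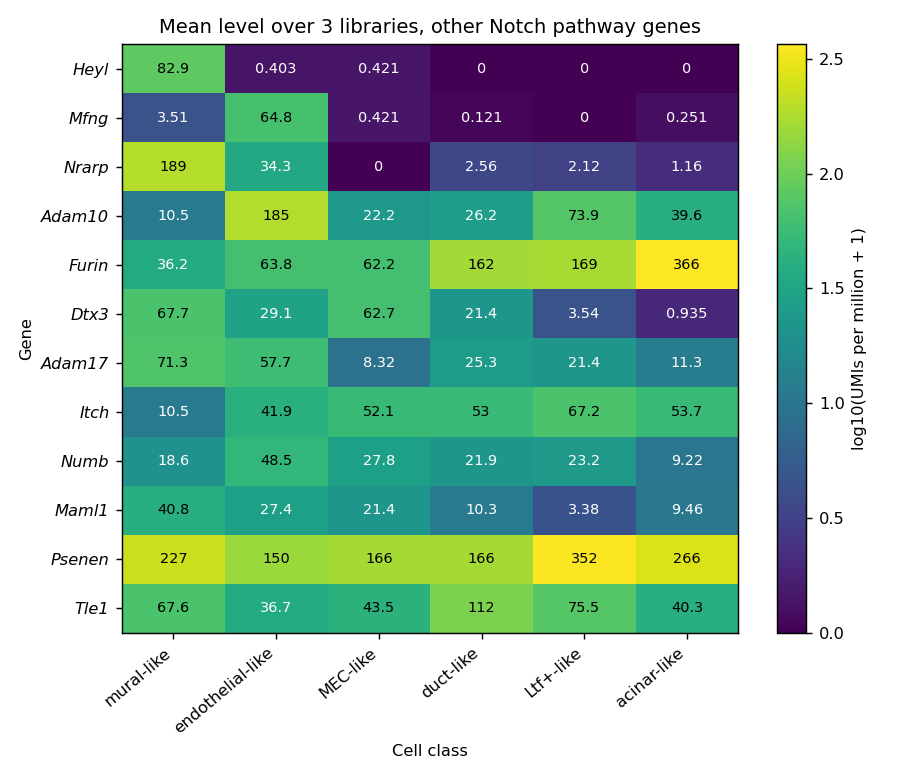
Mean level over 3 libraries (numbers in the cells, CPM without tear-product and mitochondrial genes; colour, log10 of that level plus 1) of 12 other pathway genes (rows) in 6 cell classes (columns). Heyl and Nrarp are highest in mural-like cells at 82.9 and 189, Mfng and Adam10 in endothelial-like cells at 64.8 and 185, and Furin in acinar-like cells at 366.

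Other genes followed the members closely over the 27 sums of 9 classes and 3 libraries, by Pearson's r of log2(level + 10), among genes with at least 50 UMIs. Notch3 was most like Olfr558 (r = 0.966), Pln (0.963) and Rgs4 (0.963), and Dll4 most like Gpihbp1, the capillary anchor of lipoprotein lipase, Gm12002 and Tie1, an endothelial receptor (r = 0.999, 0.998 and 0.997). Jag2 was most like Lama3 (0.992), Trpv4 (0.970) and the ligand Dll1 (0.956), and Notch4 most like Nxpe2, Gm32688 and Rasgrf2 (0.965, 0.964 and 0.963). The highest values were lower for Jag1 (2310022B05Rik, 0.891), Hey1 (Tspan7, 0.845), Notch1 (Prickle1, 0.820) and Notch2 (Ramp1, 0.622). Among the members themselves, Notch4 and Dll4 (r = 0.856) were the most alike. These values describe 27 sums that share their libraries, and for genes at 0 in most classes they rest on the contrast of 1 class with the rest.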

How the data were processed

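Single-cell libraries were made by the authors with a 10x 3′ kit and, per the labels, deposited as UMI counts per gene and barcode (Cell Ranger 6.1.2, mm10; the headers of the matrices of all barcodes, used here only for free RNA, name another release), before their own removal of free RNA, doublets and low-quality cells. The annotation release is not given in the sources used here. Each of the 3 libraries is 1 pool of glands. With the library as a block, p-values rest on how far class differences vary between pools, with a spread that also draws on the other genes. Columns of other samples numbered 0.

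Barcodes were kept above 500 UMIs and 200 genes if under 15% of their UMIs were mitochondrial. Doublets were removed at 0.8% per 1000 barcodes, which took out 646, 287 and 315 cells. Called barcodes numbered 9737, 6422 and 6899 and the kept cells held 55390678, 37641576 and 41269825 UMIs (F, M1, M2). Pairs of libraries shared 8 to 13 barcode sequences. Cells were clustered with Seurat 5.3.0 and sctransform 0.4.2 (3000 features, 30 dimensions, resolution 1), with 318 genes left out, among them the 9 members, the 51 other pathway genes and 128 tear-product genes. Clusters were named from marker lists. The score limit of 0.4, the rules for rival and related names, the placing of the Car6hi and Tfrchi acinar clusters in the acinar-like class and the last additions to the tear-product list were set after clusters or free RNA were seen. Unnamed clusters held 1128 cells of the gland and 697 of the epithelium; 1 unnamed endothelial cluster stayed in the endothelial-like class.

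Counts were summed per class and library and tested with edgeR 4.0.16 (quasi-likelihood F test, filterByExpr with a minimum count of 10, TMM normalization, library as a block) on all genes, with Benjamini-Hochberg adjustment and a threshold of 0.05. The block was used because all sums of a library come from 1 cell suspension. The SE is the absolute log2 fold change divided by the square root of F. DESeq2 1.42.0 was an alternative. Free RNA was estimated from uncalled barcodes holding 10 to 100 UMIs. Steps were tested on simulated data. Of changes set at 4-fold and 16-fold, 25% and 57% were recovered between mural-like and endothelial-like cells. The shares were 56% and 68% in MEC-like and 51% and 85% in arteriolar-like cells. A difference that did not pass is therefore not shown to be absent. Members and gene lists were chosen with earlier results of these data known. Named were the 9 members, the 12 other pathway genes with the largest absolute log2 fold change among those called in a lineage comparison, and up to 3 of the genes most correlated with each member; the result for Hes1 is not reported here.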

Additional observations from a re-analysis of the deposited data

Results flagged for a closer look

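In duct-like cells the level of Notch2 minus the mean level of the other 3 epithelial classes was 8.67 CPM in F and -17.6 and -33.4 in M1 and M2. It stands out because F lay on the other side of 0 from both M1 and M2. The difference was not tested, since it sets 1 library against 2, and sex coincides with core and day. Duct-like cells held 96, 3 and 0 Notch2 UMIs in 1069, 330 and 274 cells.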

How the results depend on the processing

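Over the 47 member differences tested, 627 of 683 alternative values kept both direction and side of the threshold, 34 lost a call, 8 gained one and 14 changed sign; the cause was not tested. Counted over the members that passed the filter, the number called in acinar-like cells was 5 with all UMIs as library size, and in arteriolar-like cells 1 with more than 1000 UMIs per cell and 1 with no filter on low counts, where Jag1, which had not passed it, was called as well. Leaving out 1 library at a time gave 3 to 7 members called between mural-like and endothelial-like cells (3 without F), 3 to 4 and 4 to 6 for these against epithelial-like cells, 4 to 5 in MEC-like, 3 to 4 in duct-like, 3 to 4 in Ltf+-like, 2 to 3 in acinar-like and 1 to 2 in arteriolar-like cells (1 without F). Between mural-like and epithelial-like cells Notch4 was -3.39 without integration and -3.42 to 2.95 without 1 library, and Dll4 was 5.52 by DESeq2 and 0.0231 without acinar-like cells; these Dll4 values carry no direction, since mural-like cells held 0 Dll4 UMIs and epithelial-like cells 1. Between endothelial-like and epithelial-like cells Notch3 was 0.52 with all UMIs as library size and Jag2 -0.0268 without acinar-like cells. Notch2 was 0.00954 in MEC-like cells with all UMIs as library size, and in duct-like cells -0.0435 without integration, -0.24 by DESeq2, -0.0134 with 2 times the doublets removed and -1.66 to 0.30 without 1 library. In acinar-like cells Notch1 was -2.44 with all UMIs as library size and Notch2 -0.36 to 0.13 without 1 library; in arteriolar-like cells Notch1 was -0.28 to 0.52 without 1 library. Genes called among all genes ranged from 745 to 1944 between mural-like and endothelial-like cells (main 1279) and from 119 to 395 in arteriolar-like cells (main 343). Without the library block, which pairs the sums of a library, the calls on Jag1 and Jag2 between mural-like and endothelial-like cells (log2 fold changes 2.02 and -10.43), on Jag2 between mural-like and epithelial-like (-9.47) and between endothelial-like and epithelial-like cells (0.96) and on Jag2 in Ltf+-like cells (-1.79) were lost, and no other call of a member. The 28647 to 95073 UMIs per library limit the values of mural-like cells. On a scale of all UMIs, 8 of the 9 genes kept the same highest class, and Notch2 moved from Ltf+-like to fibroblast-like cells.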
